A study of Mus musculus with 9 samples.

Results

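The genes described here encode nucleolar factors that make ribosomes, and they were taken by a pattern on the gene symbol that holds no measured value. Membership was nevertheless settled with earlier results of these data in view, so the counts of calls below describe the genes and are no independent support. The pattern covers numbered Rrp, Utp and Nop genes, Noc2l to Noc4l, the Nol6 and Nol8 to Nol12 genes, the Polr1a to Polr1e subunits and single genes such as Ncl and Npm1. It matched 48 of the 37203 gene entries of the deposited table, and all 48 held enough counts to be tested. RNA was sequenced on the Ion Proton platform from liver of Wistar rats, in 9 libraries of 3 groups with 3 libraries each. The normal group had received olive oil for 8 weeks, as the solvent control. Fibrosis was induced with carbon tetrachloride (CCl4), whose toxic radical forms in hepatocytes, diluted to 50% with olive oil and dosed at 2 mL/kg on 3 occasions a week over 8 weeks. Rats of the schisandrin B group were given CCl4 in that way too, and for the last 4 weeks, after 4 weeks of CCl4 alone, a daily dose of schisandrin B, a lignan of Schisandra fruit. The study used 25 and 50 mg/kg of schisandrin B, and the labels do not say which dose these 3 libraries had. RNA came from liver tissue, so each library holds RNA of mixed liver cells. Fewer cells of a type and less RNA per cell cannot be told apart. The labels leave unsaid if each library is a rat of its own, so SDs and p-values reflect library-to-library spread, which may be technical.

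Ribosomes are built in the nucleolus. RNA polymerase I copies the ribosomal genes into a long precursor rRNA, small nucleolar RNPs (snoRNPs) guide the chemical modification of that precursor, the small subunit processome folds and cuts its first part, and a second set of assembly factors matures the large subunit. The transcription factor Myc is a known activator of many of these genes, and in liver they are known to be active when hepatocytes grow or regenerate.

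The 9 libraries held 10320299 to 16255167 counts assigned to genes, and levels are given in CPM, the count of a gene per unit of library size after scaling with TMM factors. Hepatocyte markers were present in every library, with none of the 12 at 0 in any group, and albumin transcripts alone took 4.18% to 17.1% of the counts. Replicate numbers are not given by the labels, and those used here follow the order in which the samples are listed. Fibrosis replicate 1 stood apart from its group, with a chi-square per degree of freedom of 98.0 and 116 against the other fibrosis libraries, while all remaining pairs of one group lay between 15.1 and 43.7. One label does not hold for the normal libraries. All rats are labelled male, but Kdm5d, a gene on the Y chromosome, had 0 counts in the 3 normal libraries, 5.91 to 10.6 CPM in fibrosis libraries and 11.0 to 13.3 CPM in schisandrin B libraries. Eif2s3y, also on the Y chromosome, was likewise at 0 in the normal libraries. In any comparison with the normal libraries, CCl4 and sex cannot be told apart. The change between schisandrin B and fibrosis is not measured against the normal libraries, which enter it only through the fit, filter and scaling that all 9 libraries share.

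Nucleolar factors were high in the fibrosis libraries and low in both other groups. The summed level of the 48 genes was 657 ± 13.2 CPM in normal, 2872 ± 255 CPM in fibrosis and 798 ± 76.2 CPM in schisandrin B libraries (SD, n = 3 each), so fibrosis libraries held 4.37 times the normal and 3.60 times the schisandrin B level. As a share of all counts, without any scaling, the 48 genes took 0.0562% to 0.0585% in normal, 0.330% to 0.345% in fibrosis and 0.0706% to 0.0897% in schisandrin B libraries. The fibrosis libraries lay above all others on both scales, and the schisandrin B libraries lay above the normal ones on both.

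In fibrosis against normal libraries 45 of the 48 genes rose and 0 fell, where edgeR called 25.4% of all 14581 tested genes higher and 22.9% lower at an adjusted p under 0.05. All 45 rose more than 2-fold, a size and call that 17.8% of all genes reached, while 15.8% reached it downward. The fibrosis libraries lay above all normal ones in 45 genes and below them in 1, beside 29% and 26.8% of all genes. The median change of the 48 genes was 2.08 on the log2 scale, beside 0.03 for all genes tested, and 28 of them were above 2. In schisandrin B against fibrosis libraries 45 of 48 fell and 1 rose, beside 24.8% of all genes called lower and 22.5% called higher. Of the 45, 44 fell more than 2-fold, a size and call that 17% of all genes reached, and the median change was -1.78 on the log2 scale, beside -0.03 for all genes. The schisandrin B and fibrosis libraries did not overlap, with schisandrin B lower, in 45 of 48 genes, beside 29% of all genes. These 2 comparisons share the fibrosis libraries, so their changes are not independent of each other. The genes that stood outside were Nop10, Rrp36 and Nhp2. Without fibrosis replicate 1 the counts were 46 higher and 0 lower against normal libraries, and 1 higher and 46 lower with schisandrin B.

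**Figure D1:**
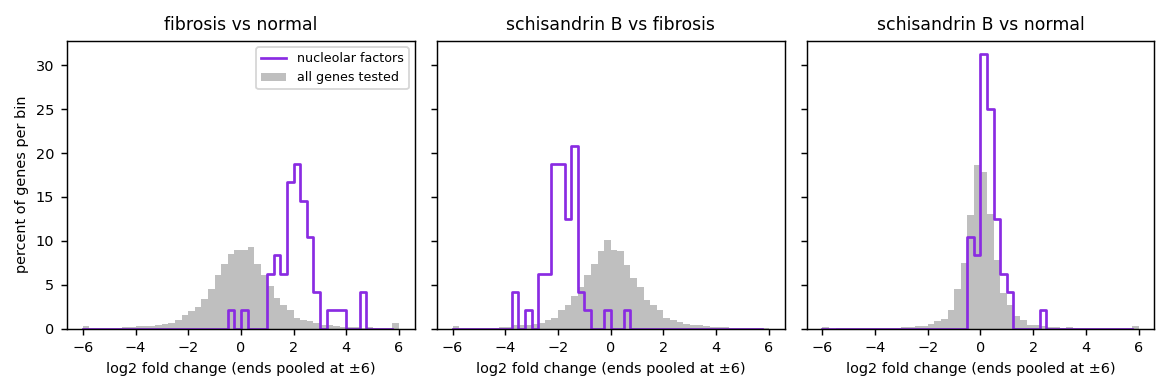
Distribution of log2 fold changes in the 3 comparisons, as the percent of genes per bin (vertical axis) against the log2 fold change (horizontal axis), for all 14581 genes tested (grey bars) and the 48 nucleolar factors (line). The nucleolar factors centre on 2.08 in fibrosis against normal, on -1.78 in schisandrin B against fibrosis and on 0.25 in schisandrin B against normal.

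Each role took part in the rise. The summed level of the 4 matched RNA polymerase I subunits was 3.48 times the normal level in fibrosis libraries. That of the 19 small subunit genes was 4.12 times and that of the 15 large subunit genes 4.75 times the normal level. That of the 7 snoRNP proteins was 5.03 times, and that of nucleolin, nucleophosmin and Nolc1 together 4.05 times. In schisandrin B libraries the same 5 sums were 1.07, 1.08, 1.24, 1.33 and 1.49 times the normal level. The schisandrin B sums were thus nearest to normal for the 4 polymerase subunits and the small subunit, and farthest for the abundant nucleolar proteins. In that last role only nucleolin (Ncl) was called higher than normal, with a mean of 73.0 against 35.9 CPM. Nucleophosmin (Npm1) had 27.3 against 20.2 CPM and Nolc1 28.5 against 30.3 CPM, both without a call.

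**Figure D2:**
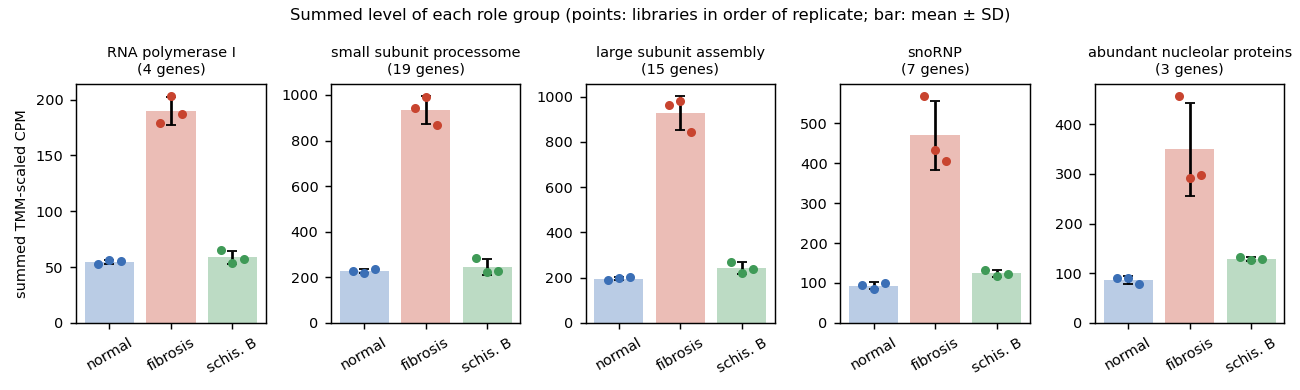
Summed TMM-scaled CPM of the genes of each role (vertical axes, from 0) in the normal, fibrosis and schisandrin B groups, with points for the 3 libraries of a group in order of replicate and bars for the mean ± SD. In all 5 roles the fibrosis libraries lie above all others, and fibrosis replicate 1 is the highest library for the snoRNP and the abundant nucleolar proteins.

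The name pattern matched 4 subunits of RNA polymerase I, and all 4 rose in fibrosis libraries and fell with schisandrin B. It matched no Polr1d entry, and other subunits of the enzyme stand in a further list given below. Polr1a, the largest subunit and part of the catalytic centre, stood at 14.1, 20.1 and 16.6 CPM in the normal libraries, at 58.4, 67.8 and 72.1 CPM in the fibrosis libraries and at 24.5, 21.7 and 21.2 CPM in the schisandrin B libraries. The 3 groups did not overlap. Polr1a rose by 1.96 ± 0.18 (SE) on the log2 scale in fibrosis (edgeR adjusted p 1.06e-05) and fell by 1.56 ± 0.18 with schisandrin B (edgeR adjusted p 5.04e-05). Polr1b, the other catalytic subunit, stood at 10.3, 12.8 and 9.55 CPM in normal, at 40.6, 57.9 and 43.9 CPM in fibrosis and at 16.0, 13.1 and 13.2 CPM in schisandrin B libraries, again without overlap. Polr1c, which RNA polymerase III also contains, stood at 22.8, 20.5 and 24.9 CPM in normal, at 64.2, 50.6 and 50.2 CPM in fibrosis and at 22.1, 16.0 and 17.8 CPM in schisandrin B libraries. It rose least of the 4, by 1.28 ± 0.18 on the log2 scale. Polr1e, a subunit particular to polymerase I, had the largest change of the 4 both ways, with 5.33, 2.57 and 4.29 CPM in normal, 15.9, 27.0 and 20.6 CPM in fibrosis and 2.39, 3.21 and 5.02 CPM in schisandrin B libraries. Its rise was 2.39 ± 0.34 and its fall 2.58 ± 0.35 on the log2 scale, and the normal and schisandrin B libraries overlapped.

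Of the 19 genes of the small subunit processome and its partners, 18 rose in fibrosis and the same 18 fell with schisandrin B. Rrp12, a HEAT-repeat protein of pre-ribosome maturation and export, changed most. It stood at 4.55, 5.62 and 6.96 CPM in normal, at 149, 154 and 118 CPM in fibrosis and at 16.8, 7.22 and 8.95 CPM in schisandrin B libraries. No fibrosis library came near the other 6. The fitted rise was 24.5-fold, or 4.61 ± 0.33 on the log2 scale (edgeR adjusted p 2.54e-06), and the fitted fall with schisandrin B was 12.8-fold (edgeR adjusted p 9.10e-06). Schisandrin B replicate 1 was the highest of its group for this gene.

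Rrp9, a protein bound to the U3 snoRNA that pairs with the precursor rRNA, stood at 7.47, 6.91 and 7.13 CPM in normal, at 61.1, 48.6 and 42.2 CPM in fibrosis and at 15.0, 10.7 and 8.40 CPM in schisandrin B libraries. The 3 groups did not overlap, and the rise and the fall were 2.82 ± 0.24 and 2.15 ± 0.23 on the log2 scale. Utp20, a very large scaffold protein, stood at 10.05, 13.1 and 13.0 CPM in normal, at 84.4, 77.0 and 77.0 CPM in fibrosis and at 19.6, 12.5 and 9.95 CPM in schisandrin B libraries, a rise of 2.72 ± 0.24 and a fall of 2.50 ± 0.24 on the log2 scale. Wdr43, which joins the processome to nascent precursor rRNA, stood at 15.3, 11.2 and 11.7 CPM, at 90.6, 88.9 and 68.6 CPM and at 21.3, 14.0 and 15.6 CPM in the same order of groups, a rise of 2.70 ± 0.22 and a fall of 2.29 ± 0.21. Nol6, another scaffold protein, stood at 14.8, 18.6 and 25.7 CPM, at 85.9, 105 and 98.1 CPM and at 24.9, 21.1 and 17.4 CPM, a rise of 2.29 ± 0.23 and a fall of 2.19 ± 0.23. In these last 3 genes the fibrosis libraries stood clear of all others, while the normal and schisandrin B libraries overlapped.

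The other small subunit genes with a call rose by 1.04 (Utp23, a nuclease-like protein) to 2.46 (Nol10) on the log2 scale. They fell with schisandrin B by 1.25 (Nop9) to 2.16 (Noc4l, a partner of Nop14). Between those ends lay Nop14, Utp3, Utp15, Utp14a, Utp11l, Utp18, Rrp7a, Nol11 and Utp6. Nol11, which works in precursor transcription and processing, rose by 1.18 ± 0.19 and fell by 1.37 ± 0.19. Utp6 rose by 1.06 ± 0.16 and fell by 1.41 ± 0.16. Every fibrosis library was above every other library in each of these genes.

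Rrp36 was the exception among small subunit genes. It stood at 20.8, 21.7 and 23.4 CPM in normal, at 12.8, 33.1 and 31.1 CPM in fibrosis and at 21.0, 20.6 and 25.6 CPM in schisandrin B libraries. Fibrosis replicate 1 was the lowest of all 9 libraries and the other fibrosis libraries were the highest. With all libraries Rrp36 differed by 0.23 ± 0.29 between fibrosis and normal without a call (edgeR adjusted p 0.542). Without fibrosis replicate 1 it was called higher than normal, by 0.55 on the log2 scale (edgeR adjusted p 0.0124), and called lower with schisandrin B, at -0.53 (edgeR adjusted p 0.0158).

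**Figure D3:**
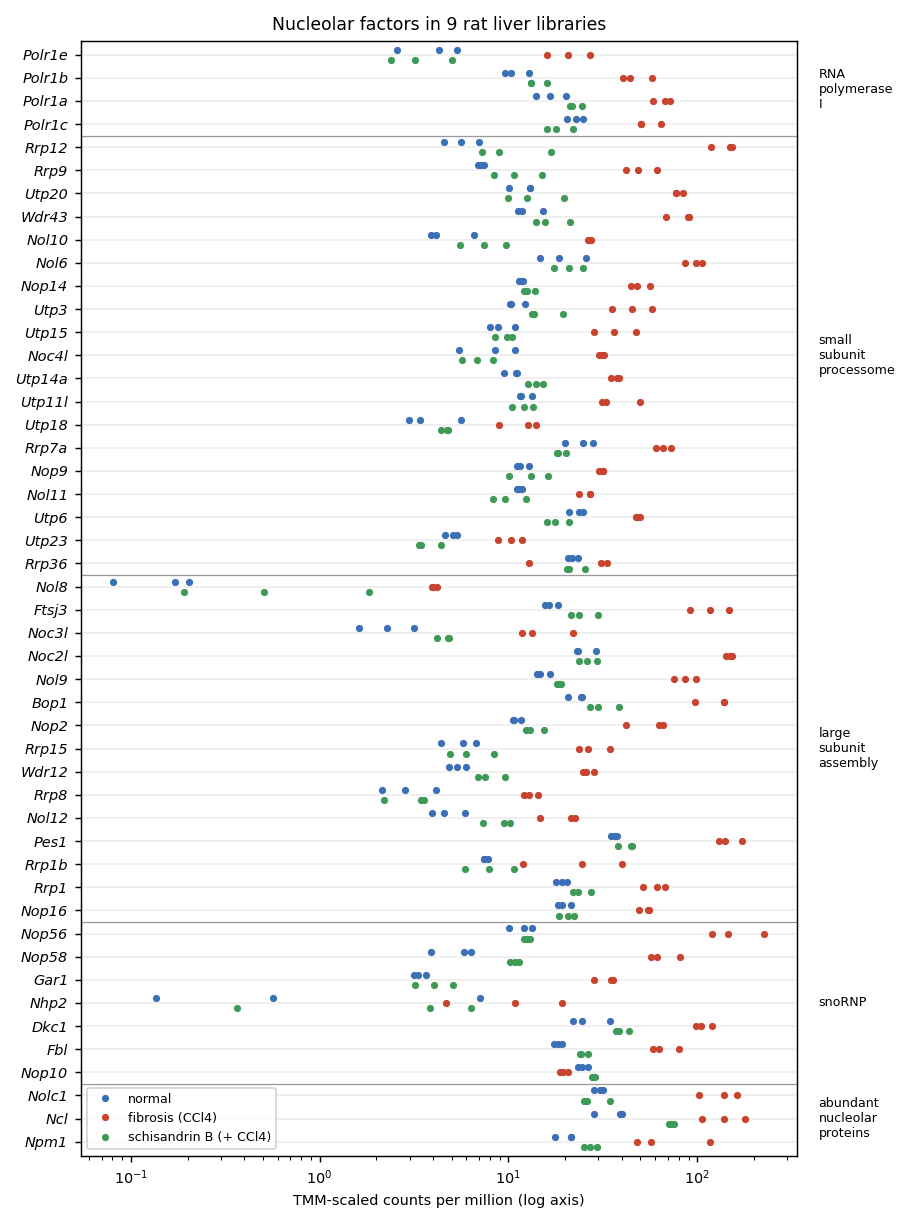
Level of each of the 48 nucleolar factors (rows, grouped by role) in the 9 libraries, in TMM-scaled CPM on a log axis, with normal, fibrosis and schisandrin B libraries in separate colours. The fibrosis points lie to the right of the others in nearly all rows. Exceptions are Rrp36, where fibrosis replicate 1 is lowest at 12.8 CPM, Nop10, where the fibrosis libraries are lowest, and Nhp2, where the groups overlap.

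All 15 genes of large subunit assembly rose in fibrosis and all 15 fell with schisandrin B. Noc2l, a partner of other Noc proteins on early large subunit precursors, stood at 23.2, 23.2 and 29.1 CPM in normal, at 142, 154 and 149 CPM in fibrosis and at 29.6, 23.5 and 26.1 CPM in schisandrin B libraries. The fibrosis libraries were close to each other and the other 6 overlapped. Its rise was 2.56 ± 0.17 on the log2 scale (edgeR adjusted p 1.97e-06) and its fall 2.49 ± 0.17 (edgeR adjusted p 4.49e-06). Noc3l, the partner of Noc2l, stood at 3.18, 1.63 and 2.27 CPM in normal, at 21.9, 13.4 and 11.7 CPM in fibrosis and at 4.87, 4.81 and 4.20 CPM in schisandrin B libraries, with no overlap between the 3 groups.

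Ftsj3, a methyltransferase-like assembly factor, stood at 18.4, 16.3 and 15.6 CPM in normal, at 147, 117 and 91.5 CPM in fibrosis and at 29.9, 23.6 and 21.5 CPM in schisandrin B libraries. Its rise was 7.05-fold and its fall 4.73-fold. Nol9, a kinase that acts on a spacer of the precursor rRNA, stood at 14.2, 14.7 and 16.6 CPM, at 75.2, 98.7 and 86.4 CPM and at 18.4, 18.2 and 18.9 CPM in the same order of groups, a rise of 5.72-fold and a fall of 4.69-fold. Both genes had 3 groups without overlap, in the order normal, schisandrin B, fibrosis.

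Bop1, Pes1 and Wdr12 form one complex that is needed to process the large subunit rRNA, and they changed by like amounts. In fibrosis they rose by 2.42 ± 0.21, 2.02 ± 0.17 and 2.28 ± 0.20 on the log2 scale, and with schisandrin B they fell by 1.97 ± 0.20, 1.80 ± 0.17 and 1.71 ± 0.19. Differences between the 3 genes were not tested. Nop2 and Rrp8, both rRNA methyltransferases, rose by 2.37 and 2.10 and fell by 2.07 and 2.09. Rrp15 and Rrp1 rose by 2.32 and 1.65 and fell by 2.13 and 1.31. Nop16 had the smallest rise of the 15, at 1.43 ± 0.16, and Nol12, a nucleolar nuclease, the smallest fall, at 1.12 ± 0.24.

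Nol8 and Rrp1b rest on fewer counts or on libraries that differ. Nol8 had 2, 3 and 1 counts in the normal libraries, 52, 53 and 67 in the fibrosis libraries and 2, 7 and 20 in schisandrin B replicates 1, 2 and 3. Its pooled rate in fibrosis was 26.1 times the normal rate, with a 95% counting interval of 11.7 to 72.1 that covers counting error only. It fell by 2.26 ± 0.57 on the log2 scale with schisandrin B (edgeR adjusted p 0.00647), and by 3.44 without schisandrin B replicate 3. Rrp1b, a paralog of Rrp1 whose reads could be split with it, stood at 7.39 to 7.79 CPM in normal libraries, but at 11.9, 40.2 and 24.5 CPM in fibrosis replicates 1, 2 and 3. It rose by 1.76 ± 0.38 on the log2 scale (edgeR adjusted p 0.00294), and fibrosis replicate 1 was close to the highest schisandrin B library at 10.7 CPM.

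The snoRNP proteins held large changes and also genes that did not follow the rest, with 5 of 7 called higher in fibrosis and 5 called lower and 1 higher with schisandrin B. Box C/D snoRNPs place ribose methyl groups on rRNA and contain Nop56, Nop58 and the methyltransferase fibrillarin, Fbl. Nop56 stood at 12.03, 10.02 and 13.3 CPM in normal, at 227, 146 and 120 CPM in fibrosis and at 13.0, 12.5 and 12.1 CPM in schisandrin B libraries. The normal and schisandrin B libraries overlapped. Its rise was 14.0-fold (edgeR adjusted p 1.97e-06) and its fall 13.1-fold (edgeR adjusted p 4.49e-06). Nop58 stood at 5.84, 6.37 and 3.89 CPM in normal, at 80.6, 56.7 and 61.4 CPM in fibrosis and at 10.9, 11.4 and 10.2 CPM in schisandrin B libraries, so its schisandrin B libraries stayed above all normal ones. Fbl changed less than its partners, with 19.2, 17.5 and 18.4 CPM in normal, 80.2, 62.5 and 58.5 CPM in fibrosis and 26.4, 23.9 and 24.4 CPM in schisandrin B libraries, a rise of 1.87 ± 0.17 and a fall of 1.43 ± 0.17 on the log2 scale. Levels of different genes are not compared, because counts are not divided by transcript length.

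Box H/ACA snoRNPs turn uridines of rRNA into pseudouridine and contain the synthase Dkc1 with Gar1, Nhp2 and Nop10. These 4 partners of one particle did not move alike. Gar1 stood at 3.18, 3.32 and 3.64 CPM in normal, at 35.8, 34.9 and 28.4 CPM in fibrosis and at 5.07, 3.21 and 4.02 CPM in schisandrin B libraries, a rise of 9.74-fold and a fall of 8.09-fold. Dkc1 stood at 24.6, 21.9 and 34.7 CPM, at 120, 104 and 98.9 CPM and at 43.6, 37.3 and 38.5 CPM, a rise of 3.98-fold and a fall of 2.70-fold. For both genes every fibrosis library was above all others, and for Dkc1 the schisandrin B libraries were also above the normal ones.

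Nop10, a very small protein of the same particle, was lowest in the fibrosis libraries. It stood at 23.4, 24.6 and 26.3 CPM in normal, at 20.6, 18.8 and 19.4 CPM in fibrosis and at 28.4, 27.6 and 28.7 CPM in schisandrin B libraries. Against normal it was -0.34 ± 0.15 on the log2 scale without a call (edgeR adjusted p 0.0786), and with scaling by library totals alone this turned to 0.10. With schisandrin B it rose by 0.52 ± 0.15 (edgeR adjusted p 0.0120), a call that library totals ended (0.25, edgeR adjusted p 0.222). Nhp2 was uneven within every group, with 7.04, 0.135 and 0.567 CPM in normal, 4.70, 10.9 and 19.3 CPM in fibrosis and 6.31, 0.365 and 3.83 CPM in schisandrin B libraries. In counts the normal libraries held 82, 2 and 7, so normal replicate 1 alone carried most of that group. Nhp2 was not called in either comparison (edgeR adjusted p 0.161 and 0.252), and without normal replicate 1 it was called higher in fibrosis, at 5.07 on the log2 scale (edgeR adjusted p 0.0101).

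Nucleolin, nucleophosmin and Nolc1 are abundant nucleolar proteins that bind precursor rRNA, chaperone ribosomal proteins and carry snoRNPs. Ncl, for nucleolin, stood at 39.2, 39.9 and 28.6 CPM in normal, at 179, 106 and 139 CPM in fibrosis and at 72.8, 70.9 and 75.3 CPM in schisandrin B libraries. The 3 groups did not overlap, and the schisandrin B libraries lay well above the normal ones. Ncl rose by 1.98 ± 0.22 on the log2 scale in fibrosis (edgeR adjusted p 3.01e-05) and fell by 0.95 ± 0.21 with schisandrin B (edgeR adjusted p 0.00313), the smallest fall among the 45 genes. Reads of Ncl can be shared with its pseudogene entry Ncl-ps1, which stood at 24.7 to 33.2, 86.7 to 137 and 42.9 to 50.8 CPM, the same order of groups.

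Npm1, for nucleophosmin, stood at 21.6, 21.3 and 17.6 CPM in normal, at 117, 47.8 and 56.9 CPM in fibrosis and at 25.1, 29.6 and 27.2 CPM in schisandrin B libraries. Fibrosis replicate 1 was the highest by far. Npm1 rose by 1.87 ± 0.30 on the log2 scale (edgeR adjusted p 0.000365), and by 1.38 without that library (edgeR adjusted p 3.06e-05). Nolc1, a snoRNP chaperone, stood at 30.5, 28.5 and 31.8 CPM in normal, at 162, 138 and 103 CPM in fibrosis and at 34.4, 25.3 and 25.9 CPM in schisandrin B libraries. It rose 4.43-fold and fell 4.70-fold, and its normal and schisandrin B libraries overlapped.

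**Figure D4:**
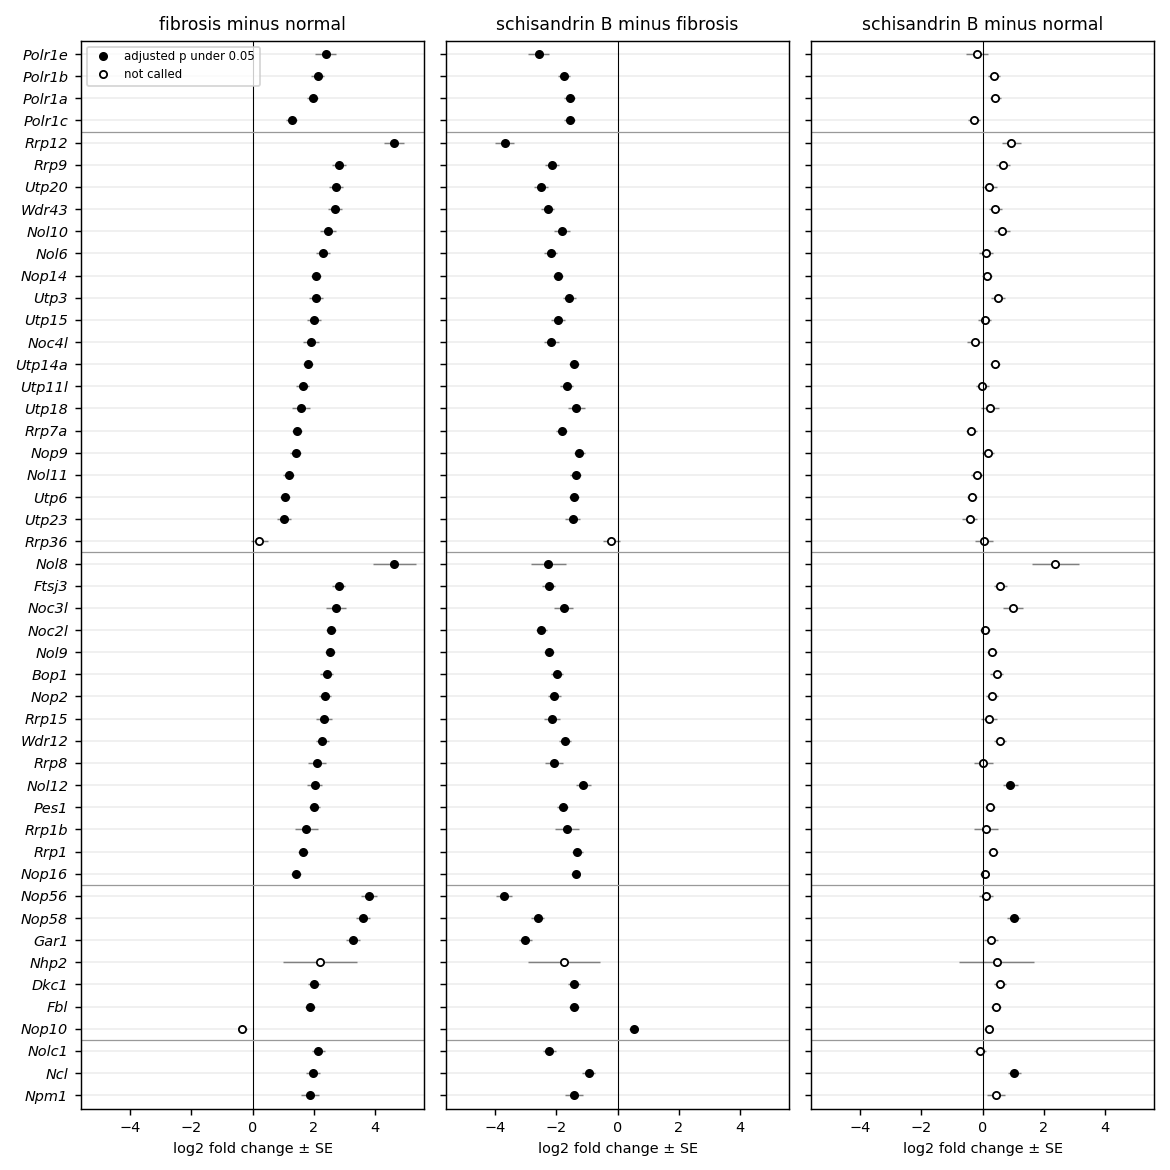
Log2 fold change ± SE (horizontal axes) of each of the 48 nucleolar factors (rows, grouped by role) in 3 comparisons, with filled points for genes at an edgeR adjusted p under 0.05 and open points for the rest. Filled points number 45 to the right in the first panel, 45 to the left and 1 to the right in the second, and 3 to the right in the third.

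Against the normal libraries, the schisandrin B libraries were much nearer than the fibrosis libraries. edgeR called 3 of the 48 genes higher and 0 lower, beside 5.25% of all genes called higher and 5.25% lower, and the median change was 0.25 on the log2 scale, beside 0.00 for all genes. Of the 3 calls, 2 were over 2-fold, beside 3.73% of all genes called higher and 3.22% called lower by that much. At an unadjusted p under 0.05 there were 17 of the 48, beside 26.7% of all genes. In 22 of 48 genes the schisandrin B libraries were all above the normal ones, and in 2 (Utp6 and Utp23) all below, beside 19.9% and 18.8% of all genes. The mean level with schisandrin B lay between those of the other groups in 38 genes, below both in 9 and above both in 1, which was Nop10. A difference below 0.5 on the log2 scale in either direction was seen in 36 of the 48.

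The 3 genes called higher than normal with schisandrin B were Ncl (1.02 ± 0.21 on the log2 scale, edgeR adjusted p 0.0111), Nop58 (1.01 ± 0.22, edgeR adjusted p 0.0146) and Nol12 (0.90 ± 0.25, edgeR adjusted p 0.0415). Nol12 stood at 3.95, 5.89 and 4.53 CPM in normal, at 14.7, 22.6 and 21.6 CPM in fibrosis and at 10.2, 7.36 and 9.50 CPM in schisandrin B libraries. None of the 3 genes overlapped between schisandrin B and normal libraries. Of the 19 alternative settings, Ncl kept its call in 17, Nop58 in 16 and Nol12 in 11. All 3 calls were lost without normal replicate 3. Without normal replicate 3, 1 gene was called (Dkc1), and without fibrosis replicate 1, which enters that comparison only through the fit shared by all groups, 8 were called. The libraries labelled normal also lack Y-linked transcripts, as given above, and the part of sex in these differences cannot be told apart from that of treatment.

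Normal libraries and fibrosis libraries varied less within their group in these genes than in most, and schisandrin B libraries about as much. The median coefficient of variation was 10.8% in normal, 14.7% in fibrosis and 14.5% in schisandrin B libraries for the 48 genes, beside 18.3%, 26.1% and 15.4% for all genes tested, which include many genes with lower counts. Of the schisandrin B libraries, replicate 1 was the highest in 34 of 48 genes, where it was the highest in 35.8% of all genes. Of the fibrosis libraries, replicate 1 was the highest in 26 and replicate 3 in 4, beside 40.8% and 27.1% of all genes. Myc was also highest in schisandrin B replicate 1, as given below, and its part in this pattern was not tested.

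Most further factors of ribosome production that the name pattern does not take moved the same way. Not all of them act in the nucleolus. The counts stand beside 25.4% of all genes called higher and 22.9% lower in fibrosis. With schisandrin B the shares over all genes were 22.5% higher and 24.8% lower. Of 40 other small subunit factors 37 rose and 0 fell in fibrosis, with a median of 1.46 on the log2 scale. In schisandrin B against fibrosis 31 fell and 0 rose, with a median of -1.28. Tsr1, a maturation factor that binds late small subunits, rose by 2.75 ± 0.16, and Bysl, which encodes bystin, an export factor of small subunits, rose by 3.02 ± 0.24. Mybbp1a, a nucleolar protein that binds Myb and polymerase I, fell by 2.54 ± 0.19 with schisandrin B. Of 48 other large subunit factors 47 rose and 0 fell in fibrosis, and 44 fell and 0 rose with schisandrin B. Among them Sdad1 rose by 3.10 ± 0.21 and fell by 3.04 ± 0.21, and Gnl2, a nucleolar GTPase, rose by 2.41 ± 0.19. Of 13 snoRNP assembly factors 11 rose and 0 fell in fibrosis, with the ATPases Ruvbl1 and Ruvbl2 at 1.64 and 1.55 on the log2 scale.

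Machinery next to these steps was called in both directions or less often, and its counts stand beside 25.4% of all genes higher and 22.9% lower in fibrosis. Of 17 genes of polymerase I initiation and regulation or of further subunits 8 rose and 1 fell in fibrosis, with a median of 0.26 on the log2 scale. Without fibrosis replicate 1, 9 rose and 0 fell with a median of 0.48, and with library totals 10 rose and 0 fell with a median of 0.72. With upper-quartile factors 8 rose and 1 fell, and the median was 0.16. The polymerase I subunits Cd3eap and Twistnb rose by 3.56 ± 0.35 and 2.51 ± 0.31, while the only gene called lower was Sirt7, a deacetylase that works at ribosomal genes (-0.60 ± 0.22, edgeR adjusted p 0.0418). That call was lost without fibrosis replicate 1 (-0.40, edgeR adjusted p 0.0863), without normal replicate 1 or 2 (-0.57 and -0.54), without fibrosis replicate 3 (-0.66), without schisandrin B replicate 2 or 3 (-0.61 each), and with library totals (-0.16, edgeR adjusted p 0.639). Of 15 RNA exosome genes and cofactors, which trim and degrade precursor RNA, 10 rose and 0 fell. Of 22 genes of RNA polymerase III, which makes tRNA and the smallest rRNA, 10 rose and 3 fell. Its subunit Polr3gl fell by 1.76 ± 0.24, while Polr3g, the alternative to that subunit and named here after its values were seen, rose by 1.63 ± 0.43. Sirt7 and Polr3gl rose with schisandrin B, by 1.20 ± 0.22 and 1.48 ± 0.24.

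Cytosolic ribosomal proteins, which these factors assemble, were taken by symbol, and the list also holds Rps19bp1, which is not a ribosomal protein. Of its 78 tested genes 32 rose and 0 fell in fibrosis, beside 25.4% of all genes higher and 22.9% lower. The median was 0.52 on the log2 scale. Scaling by library totals alone gave 62 higher and 0 lower. Rpl3 rose by 1.34 ± 0.17, from a mean of 264 to 667 CPM, and fell by 1.27 ± 0.17 with schisandrin B. With schisandrin B 15 of the 78 fell and 5 rose, with a median of -0.17, beside 24.8% of all genes called lower and 22.5% higher. With library totals 30 fell and 2 rose. Without fibrosis replicate 1, 12 fell and 10 rose, and the median was 0.03. Many ribosomal proteins have processed pseudogenes with which reads can be shared, so their single-gene values are uncertain.

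**Figure D5:**
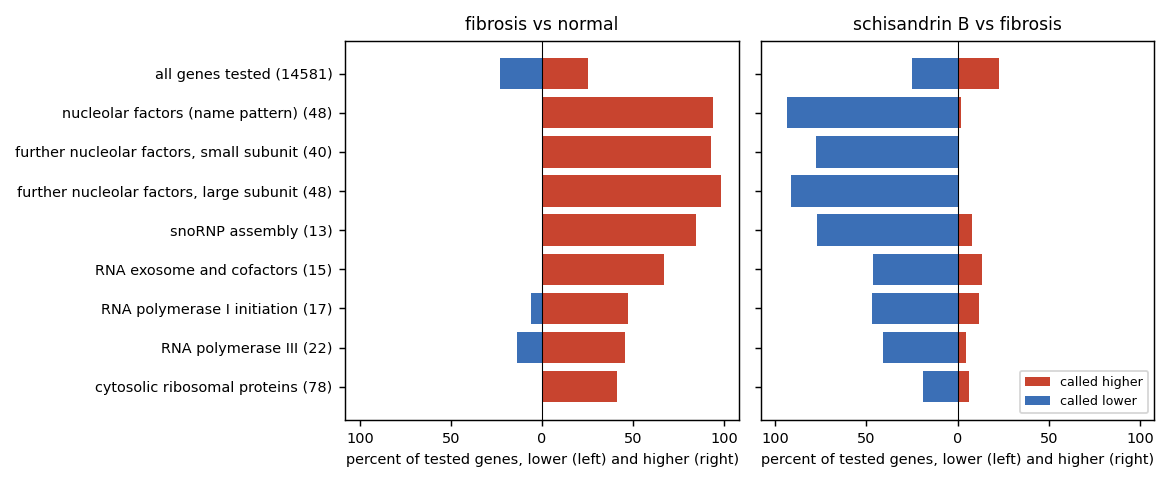
Percent of the tested genes of each list (number tested in brackets) that edgeR called lower (left of 0) or higher (right of 0) at an adjusted p under 0.05, in fibrosis against normal (first panel) and in schisandrin B against fibrosis (second panel). The nucleolar factors and the further factors of both subunits are called nearly all one way in fibrosis, with 45 of 48, 37 of 40 and 47 of 48 higher. In the list taken by ribosomal protein symbols 32 of 78 are called higher.

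Myc moved with the nucleolar factors. It stood at 10.05, 26.5 and 10.7 CPM in normal, at 247, 330 and 206 CPM in fibrosis and at 33.2, 14.4 and 8.86 CPM in schisandrin B libraries. The fibrosis libraries were far above the other 6, which overlapped. Myc rose by 4.05 ± 0.55 on the log2 scale (edgeR adjusted p 0.000241) and fell by 3.80 ± 0.54 (edgeR adjusted p 0.000362). Of the 11 tested genes of Myc and its partners 4 rose and 3 fell in fibrosis, beside 25.4% of all genes higher and 22.9% lower, and the median was 0.02. Besides Myc, those that rose were Max, the partner with which Myc binds DNA (0.91 ± 0.15), Mnt (1.18 ± 0.31), which competes with Myc for Max, and Mga (0.87 ± 0.23). Those that fell were Mlxipl, a glucose-responsive factor of hepatocytes (-1.62 ± 0.26), and the Myc competitors Mxd4 (-0.89 ± 0.21) and Mxi1 (-0.84 ± 0.29). With library totals Mxd4 and Mxi1 were not called (-0.43 and -0.37), and Mxi1 was also not called without normal replicate 2 (edgeR adjusted p 0.0507) or 3 (edgeR adjusted p 0.129). With schisandrin B 5 of the 11 fell and 3 rose, beside 24.8% of all genes called lower and 22.5% higher. Mlxipl had the largest rise, by 2.19 ± 0.26, and Mnt fell by 1.82 ± 0.32. The part of Myc in the changes of nucleolar factors was not tested.

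Summed markers of some cell types differed between the groups, and those of others overlapped. The summed level of 12 hepatocyte markers was 255056 to 288858 CPM in normal, 87174 to 133360 CPM in fibrosis and 213190 to 237763 CPM in schisandrin B libraries, the opposite order to the nucleolar factors. Cholangiocyte markers, 8 in all, summed to 37.1 to 47.3, 76.8 to 83.3 and 30.4 to 52.6 CPM, and 8 neutrophil markers to 5.82 to 10.4, 17.3 to 22.6 and 2.37 to 6.49 CPM, both highest in fibrosis libraries. Not every marker followed its sum. In fibrosis against normal 8 of 12 hepatocyte markers were called lower and 0 higher. Called higher were 3 of 7 tested cholangiocyte and 2 of 4 tested neutrophil markers, and 0 lower. Of all genes 22.9% were called lower and 25.4% higher. The 12 stellate cell and fibroblast markers summed to 284 to 435, 323 to 510 and 513 to 706 CPM, highest with schisandrin B. Gene by gene they split, with 5 called higher and 3 lower in schisandrin B against fibrosis, beside 22.5% and 24.8% of all genes. The summed macrophage markers ranged from 1776 to 2740, 1051 to 2195 and 1060 to 1637 CPM. The endothelial ones ranged from 569 to 705, 429 to 571 and 501 to 550 CPM. For both cell types the fibrosis range overlapped those of the other groups. T and NK cell markers, at 17.8 to 25.6, 6.21 to 9.71 and 12.1 to 15.1 CPM, and B cell markers, at 26.2 to 37.3, 6.36 to 10.3 and 12.3 to 18.6 CPM, were lowest in fibrosis libraries. Markers without a count in any library of a group were Pax5 in normal, Elane in fibrosis, and Elane and Cd79a in schisandrin B libraries. Markers of proliferating cells, 10 in all, summed to 36.5 to 56.0, 30.7 to 47.0 and 32.3 to 38.4 CPM, ranges that overlapped. In fibrosis 4 of their 8 tested genes fell and 1 rose, beside 22.9% of all genes called lower and 25.4% higher. The part of cell composition in the changes of nucleolar factors was not tested.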

How the data were processed

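Gene counts were deposited by the authors as one table of raw counts per gene and library, with no normalization, judging from the values, which are whole numbers with a different total in each library. Libraries were sequenced on the Ion Proton platform, per the labels' protocols. The genome build is listed as GRCm38 in the submitters' processing notes, which is a mouse build, while the rats are Wistar by the labels and the table holds rat gene names, 1317 of them beginning with RGD, the prefix of the Rat Genome Database. For the aligner, the counter, the use of strand and the removal of ribosomal RNA, the entry is: not given in the sources used here. A low or missing value can therefore also reflect the reference that was used, which was not tested, and no sequence is printed because no rat reference was used here.

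Counts were analysed with edgeR 4.0.16 in R 4.3.3. Genes were filtered with filterByExpr, which left 14581, libraries were scaled with TMM factors, and a quasi-likelihood F test with robust dispersion was fitted over all 9 libraries with one mean per group. Genes were called at a Benjamini-Hochberg adjusted p under 0.05 over all tested genes. The SE of a log2 fold change was taken as its size divided by the square root of F. All 3 comparisons between groups were made, and they share libraries. On simulated counts with changes planted in 200 of 14551 genes the test missed most 2-fold changes. The share of false calls exceeded the adjusted p threshold in all 3 comparisons. It was 11.5% for fibrosis against normal, 6.31% for schisandrin B against fibrosis and 6.96% for schisandrin B against normal. These shares change with the random seed, and with another seed not every comparison exceeded the threshold. In the data far more genes were called, 48.3% in fibrosis against normal and 47.3% in schisandrin B against fibrosis. The adjusted p depends on the share of changed genes, so the simulated recovery and false calls need not hold for the calls given here. Figures were drawn with matplotlib 3.10.9.

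The nucleolar genes, roles and other gene lists were chosen with earlier results of these data known. In each role, up to 4 genes with the largest change in each of the first 2 comparisons, genes called against their role, and Ncl, Npm1, Fbl, Dkc1 and Polr1a are given in full, and of other lists up to 3 genes per direction with the lowest adjusted p. A few others are named for contrast. Alternatives were other scaling factors, other filters, DESeq2 1.42.0, limma voom 3.58.1, only the groups compared, omission of the 20 most counted genes, an adjusted p under 0.01, and each library left out in turn. One further gene list is not reported here.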

Additional observations from a re-analysis of the deposited data

How the results depend on the processing

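Of the 45 nucleolar genes called higher in fibrosis 44 kept that call in all 19 alternative settings, and so did 44 of the 45 called lower with schisandrin B. The other gene, Nol8, was removed by the filter on a mean of 5 CPM and kept both calls in the 18 settings that tested it. For Nop10 the fibrosis against normal value of -0.34 on the log2 scale turned to 0.10 with library totals and was called lower with upper-quartile factors (-0.44, edgeR adjusted p 0.0264) and with the 5 CPM filter (-0.37, edgeR adjusted p 0.0371), and its rise with schisandrin B was lost in 3 of the 19. The schisandrin B against normal calls depended on the processing. Of 3 genes with edgeR, 10 were called with library totals, 5 with DESeq2, 7 with only the 2 groups compared and 0 at an adjusted p under 0.01, where 17 had an unadjusted p under 0.05, and leaving out single libraries gave 1 to 8. Over all genes the count for that comparison was 1531, and it was 2951 with only the 2 groups compared, 547 at an adjusted p under 0.01, and 702 to 2814 with single libraries left out, the highest without fibrosis replicate 1. Library totals shifted the median of all genes by 0.43 in fibrosis against normal, -0.27 in schisandrin B against fibrosis and 0.16 in schisandrin B against normal, and raised the share of calls that were higher in the first from 52.7% to 74.7%, lowered it in the second from 47.6% to 32.6% and raised it in the last from 50.0% to 70.3%. Relative to that shift the nucleolar genes still stood apart in the first 2 comparisons, with medians of 2.51 and -2.07, beside 0.46 and -0.30 for all genes. In schisandrin B against normal their median was 0.41, beside 0.16 for all genes. The cause of these differences was not tested. No paired analysis was possible because the labels give no replicate numbers, and those used here pair no libraries across groups. With 3 libraries a group and as few as 1 count for Nol8 or 2 for Nhp2 in a normal library, small changes of such genes were not detectable at this depth.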

Other observations

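Transcripts of the ribosomal genes themselves, chosen after their values were seen, did not show the pattern of the nucleolar factors. Rn45s, the entry for the precursor rRNA, stood at 330, 349 and 500 CPM in normal, at 543, 437 and 237 CPM in fibrosis and at 202, 275 and 519 CPM in schisandrin B libraries. The groups overlapped, and fibrosis differed from normal by 0.05 ± 0.38 on the log2 scale (edgeR adjusted p 0.929). Rn18s differed by -0.16 (edgeR adjusted p 0.763). Rn28s was at 104 to 193, 99.6 to 237 and 60.2 to 99.5 CPM, and it fell by 1.22 ± 0.34 with schisandrin B (edgeR adjusted p 0.0128). These entries can share reads, and what is left of rRNA in a library depends on how it was removed, which is not given in the sources used here.

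Gas5, a noncoding host gene of box C/D snoRNAs, also chosen after its values were seen, stood at 2.58, 4.40 and 3.00 CPM in normal, at 18.5, 12.8 and 12.2 CPM in fibrosis and at 6.02, 5.54 and 5.57 CPM in schisandrin B libraries. The 3 groups did not overlap. It rose by 2.11 ± 0.27 on the log2 scale (edgeR adjusted p 9.20e-05) and fell by 1.34 ± 0.26 (edgeR adjusted p 0.00155). Among genes with nucleolar names outside the pattern, Npm3, a relative of nucleophosmin, rose by 1.52 ± 0.24 and fell by 2.37 ± 0.25, and Nol7 differed by 0.26 between fibrosis and normal without a call. Nol3, whose product is known as an inhibitor of cell death rather than a ribosome factor, rose by 5.26 on the log2 scale.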
